A study of Mus musculus with 56 samples.

Results

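The mitochondrial ribosomal protein genes were taken as all genes whose symbol begins with Mrpl or Mrps and a number in the probe annotation. The rule used symbols and no measured value. It found 76 genes of the 18193 with a usable symbol, and all 76 were among the 12351 genes bright enough to test. By their place in the ribosome, 49 belong to the large subunit, with Mrps18a and Mrps30 counted there despite their names, and 26 to the small subunit. The remaining gene, Mrps36, encodes a component of the 2-oxoglutarate dehydrogenase complex and is a member by symbol alone. Of the 75 ribosome members, 47 have a bacterial counterpart and 28 are specific to mitochondria. Probe sets that carry several symbols, 4 of which touch this family, were left out.

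Expression arrays of RNA from the gastrocnemius, the large calf muscle, measured these genes in female C57BL/6 mice. The mice breathed mainstream cigarette smoke (4%) or sham air through the nose for 2 hours on 5 days of each week. Of the 9 groups, 1 was untreated at week 0, and 3 had sham air and 3 had smoke for 2, 12 or 24 weeks. The other two were cessation arms, named FA and RA in the labels, with 12 weeks of smoke and then 12 weeks of sham exposure. The sources used here do not define FA and RA, and the sham air groups also carry FA. No genotype change and no age is given. Each group had 6 mice with 1 array each, except 12 weeks of smoke, with 7 mice and 8 arrays, because mouse G8 was measured on 2 arrays. These were averaged, which gave 55 mice from 56 arrays. The samples are pieces of whole muscle, so fewer cells of a type and less RNA per cell cannot be told apart.

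The mitochondrial ribosome makes the few proteins encoded by mitochondrial DNA, all of them hydrophobic subunits of the respiratory chain and ATP synthase. Its RNAs come from the mitochondrial genome, whereas each of its proteins is encoded in the nucleus, made on cytosolic ribosomes and imported. Muscle depends on it to keep up oxidative capacity, and inherited defects of several of these genes cause respiratory chain deficiency.

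All levels are log2 of the deposited intensity plus 16. Errors of levels are standard deviations (SD) between mice, and errors of differences are standard errors (SE). The 76 members had mean levels from 8.26 for Mrpl19 to 13.01 for Mrpl51, with a median of 10.79 against 8.99 for all 12351 genes. Mrpl51, Mrpl42 at 12.72, Mrpl52 at 12.61, Mrps21 at 12.27 and Mrpl44 at 12.11 were brightest. Mrpl19, Mrps11 at 8.71, Mrpl14 at 8.90, Mrpl10 at 9.04 and Mrps5 at 9.19 were dimmest. Probe sets bind with different strength, so this order is one of signal and not of transcript abundance.

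The members varied little between mice of the same group. Their median residual SD was 0.142 against 0.211 for all genes, and 67 of 76 (88.2%) lay below the median of all genes. The members were also brighter, with a median level of 10.79 against 8.99, and genes of like level were not set beside them. The steadiest were 3 mitochondria-specific proteins of the large subunit, Mrpl51 (0.0455), Mrpl57 (0.0577) and Mrpl42 (0.0772). The most variable were Mrpl45 (0.297), a protein near the exit of the polypeptide tunnel, Mrps23 (0.282) and Mrpl14 (0.275). Without the 12 arrays with high Glycam1 signal described below, these were 0.114, 0.242 and 0.149, and the median was 0.0906 against 0.15 for all genes. Mrpl34 (0.164) and Mrpl9 (0.162) then followed Mrps23, while Mrpl51, Mrpl42 and Mrpl57 remained the steadiest. Large subunit members had a median residual SD of 0.141 and small subunit members one of 0.143. The 41 cytosolic ribosomal proteins measured, at 0.1, and the 79 subunits of the respiratory chain and ATP synthase, at 0.0888, varied less. These lists were also brighter, with median levels of 12.86 and 12.76.

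Promoters of these genes are known for sites of NRF1, of ETS-family factors such as GABP, and of YY1, all regulators of nuclear genes for mitochondria. RefSeq promoters (GRCm38.p6, 300 bases around a start site, most of them before it) were listed for 67 of 76 members. The ETS letters CCGGAAG, searched on both strands, occurred in 37.3% of these genes and in 9.93% of the 27025 genes in the table. The NRF1 letters GCGCANGC occurred in 31.3% against 11.2%, and the YY1 letters AAGATGGC in 17.9% against 3.19%. At least 1 of the 3 occurred in 44 of the 67 (65.7%), against 21.1%. The median GC content of the members' promoters was 58.7% against 52.7%, and how far base composition alone gives these letters was not tested. A match is a description of the letters and not a bound site. Windows are printed for Mrps16 and Mrps26, which differed among groups, for Mrpl12 and Mrpl34, which are described below, and for Mrpl39, 1 of 3 members with the full NRF1 motif, beside Mrpl9 and Mrpl32. Capitals mark the ETS or NRF1 letters, read on the strand of the gene:
Mrps16: tgggggcgctCTTCCGGgcttcaggctctg
Mrps26: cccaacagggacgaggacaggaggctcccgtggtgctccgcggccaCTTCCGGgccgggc
Mrpl12: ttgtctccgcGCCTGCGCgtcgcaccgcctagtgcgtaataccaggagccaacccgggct
Mrpl34: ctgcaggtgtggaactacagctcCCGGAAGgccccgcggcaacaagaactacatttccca
Mrpl39: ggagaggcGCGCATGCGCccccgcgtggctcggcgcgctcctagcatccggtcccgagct
The Mrps16 window lies at chr14:20393545-20393574 on the minus strand, 84 to 55 bases before the start site of 1 of 2 listed transcripts. It lies inside the RefSeq span of the gene, which ends at 20393634. The promoter listed for the other transcript held none of the motifs. That of Mrps26 lies at chr2:130563697-130563756 on the plus strand and ends 1 base before its start. The Mrpl12 window lies at chr11:120484548-120484607 on the plus strand, 89 to 30 bases before its start. The Mrpl34 window lies at chr8:71464866-71464925 on the plus strand and ends 1 base before its start. The Mrpl39 window lies at chr16:84735318-84735377 on the minus strand and ends 74 bases before its start. Its capitals are the full palindromic NRF1 motif, an extended form of the letters above, which 4.48% of member genes and 1.07% of all genes had. Mrpl40 and Mrpl41 had none of the 3 motifs before their start sites.

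Before any comparison, 12 of the 56 arrays stood apart. Their intensity of Glycam1, a gene of lymph node vessels, was at least 6944, and in the other 44 arrays it was at most 307. They are called Glycam1-high arrays here. The mean of 11 measured B and T lymphocyte genes ran from 8.11 to 10.98 in them and from 4.74 to 6.32 in the others, and that of 4 adipocyte genes from 10.49 to 12.02 and from 7.68 to 11.87. The mean of 5 skeletal muscle genes was 11.85 to 12.46 against 12.30 to 12.64, so muscle transcripts were bright in every array. Of the Glycam1-high arrays, 3 were among the 24-week smoke mice and 3 among the RA mice. Another 2 belonged to 12-week smoke, and untreated mice, 2-week sham air, 24-week sham air and FA had 1 each.

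Mitochondrial ribosomal protein genes were lower in the Glycam1-high arrays. The mean over the 76 members ran from 10.17 to 10.76, with a median of 10.62, in these 12 arrays, and from 10.65 to 10.86, with a median of 10.75, in the other 44. The 2 sets overlap only between 10.65 and 10.76. Within the 7 groups that hold both kinds, 62 of 76 members had a negative mean difference, with a median of -0.12, while 50.5% of all genes were negative with a median of 0. As many as 33 members (43.4%) were lower in every one of the 7 groups, against 15.9% of all genes. Only Mrpl39 and Mrps6 (2.63%) were higher in every one of them, against 22.8% of all genes. Cytosolic ribosomal proteins lay the other way, at a mean of 11.96 to 12.47 in the Glycam1-high arrays against 11.91 to 12.04. Respiratory chain subunits had a median of 12.04 in both kinds.

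**Figure D1:**
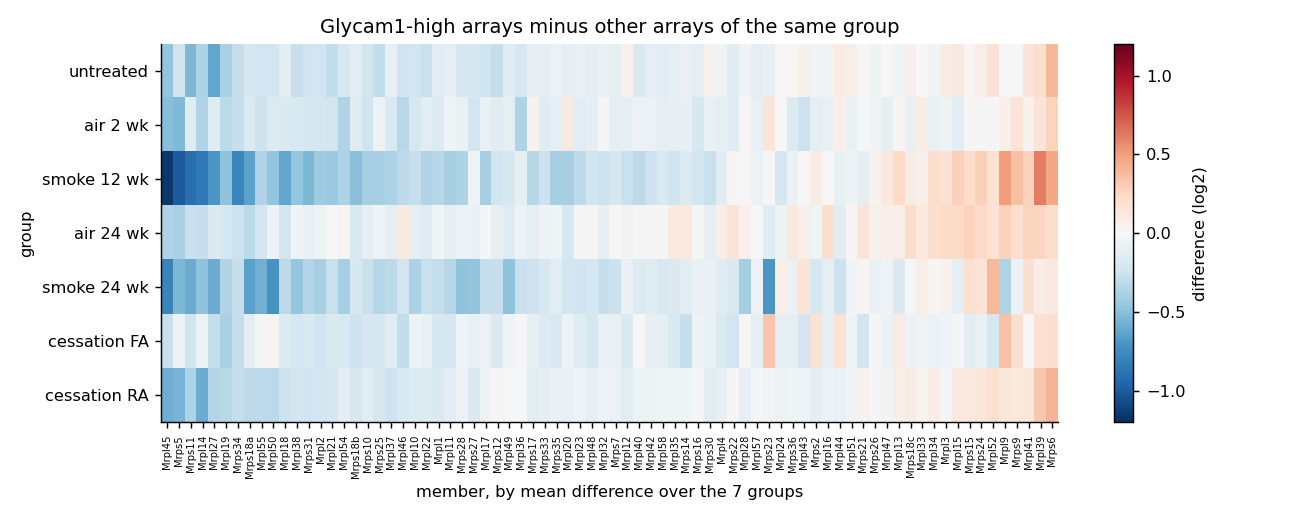
Difference in log2 level between Glycam1-high and other arrays of the same group, for each of 76 members (columns) in the 7 groups that hold both kinds (rows). Blue cells are lower in the Glycam1-high arrays. Mrpl45 at the left averaged -0.59 over the groups and Mrps6 at the right 0.30.

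The size of the shift differed widely between members. Mrpl45 was lower in all 7 groups, from -0.27 in cessation FA to -1.16 at 12 weeks of smoke, with a mean of -0.59. Mrps5 averaged -0.48, Mrps11 -0.44, Mrpl14 -0.43 and Mrpl27 -0.41. At the other end, Mrps6, a small subunit protein, was higher by 0.11 to 0.46 with a mean of 0.30, and Mrpl39 by 0.08 to 0.61 with a mean of 0.26. The 2 arrays of mouse G8 show the same within 1 animal, since replicate 7 is an ordinary array and replicate 8 a Glycam1-high one. There 56 of 76 members were lower in replicate 8, with a median of -0.26 against 0.06 for all genes. Mrpl45 went from 9.72 to 8.25, Mrpl14 from 9.01 to 8.01 and Mrps5 from 9.18 to 8.20, while Mrpl39 went from 11.31 to 11.90. These are 2 arrays and carry no test.

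Replicate 6 of 24 weeks of smoke, a Glycam1-high array, was the lowest of all 55 mice. Its mean over the members was 10.17, and the other 5 mice of its group lay between 10.67 and 10.75. In it 68 of 76 members lay below all 5 others, as did 48.7% of all genes, with a median gap to their mean of -0.54 against -0.22 for all genes. Mrpl55 stood at 8.82 against a mean of 10.18, Mrpl50 at 8.83 against 10.11 and Mrps27 at 8.16 against 9.42. The values at 24 weeks of smoke are therefore also given without this array and without all Glycam1-high arrays.

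**Figure D2:**
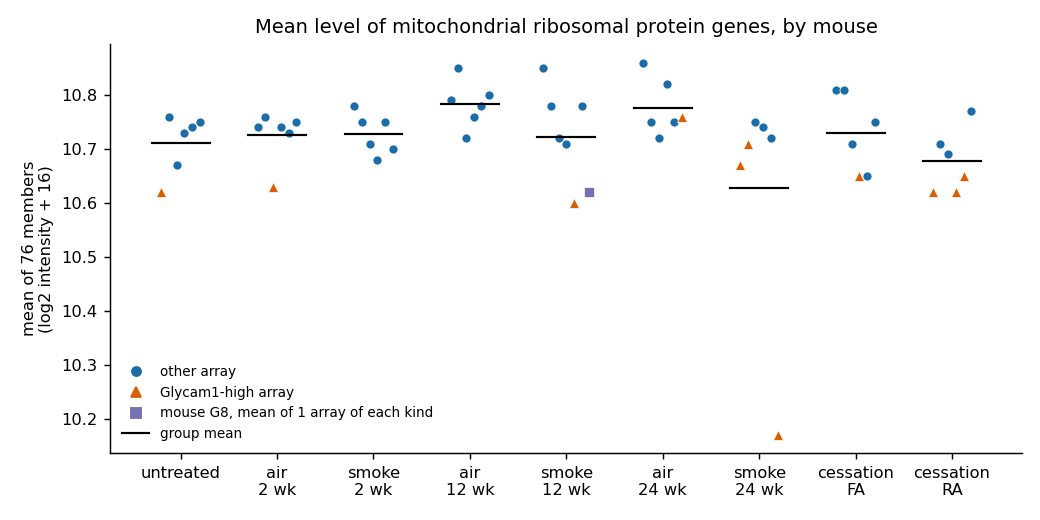
Mean level of the 76 members (log2 of intensity plus 16) in each of 55 mice, by group, with the group mean as a bar. Triangles mark Glycam1-high arrays, and the square marks mouse G8, whose value is the mean of 1 array of each kind. Replicate 6 of 24 weeks of smoke lies at 10.17, below every other mouse.

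The number that ends each sample title also moved with these genes. The labels do not say what it counts. It leaves a gap between 76 and 90, and with groups in the model, mice above 80 (28 mice) differed from those below (27 mice) in 22 of 76 members (28.9%). The same test passed 30.5% of all genes, so the share of members is near the background. With the number as a straight line, 22 members and 25.9% of all genes passed, 19 of the members in both fits. Without the Glycam1-high arrays, 47 members (61.8%, with 9 higher and 38 lower above 80) and 39.4% of all genes passed. In that fit the share of members was above the background.

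Mrps23 followed the number most closely, read from the brightest of its 3 probe sets. The others were not set against the number. It ran from 10.39 to 11.44 with a median of 11.06 in the 27 mice below 80, and from 11.31 to 11.71 with a median of 11.51 in the 28 mice above. The overlap is narrow, between 11.31 and 11.44, and the difference was 0.47 ± 0.04 (adjusted p = 5.1e-12). Mrpl52 was lower above 80, with medians of 12.69 and 12.47 and a difference of -0.26 ± 0.03 (adjusted p = 4.2e-09). Mrpl44, an RNase III-like protein at the large subunit, was higher, with medians of 12.02 and 12.20 and a difference of 0.18 ± 0.03 (adjusted p = 2.3e-07). Mrpl9 differed by 0.33, Mrps21 by -0.14 and Mrpl43 by -0.19. Mrps16 differed by -0.07 (adjusted p = 0.043), and for Mrps26, Mrpl40 and Mrpl41 the adjusted p was 0.34, 0.58 and 0.53. The split at 80 and these examples were chosen after their values were seen.

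**Figure D3:**
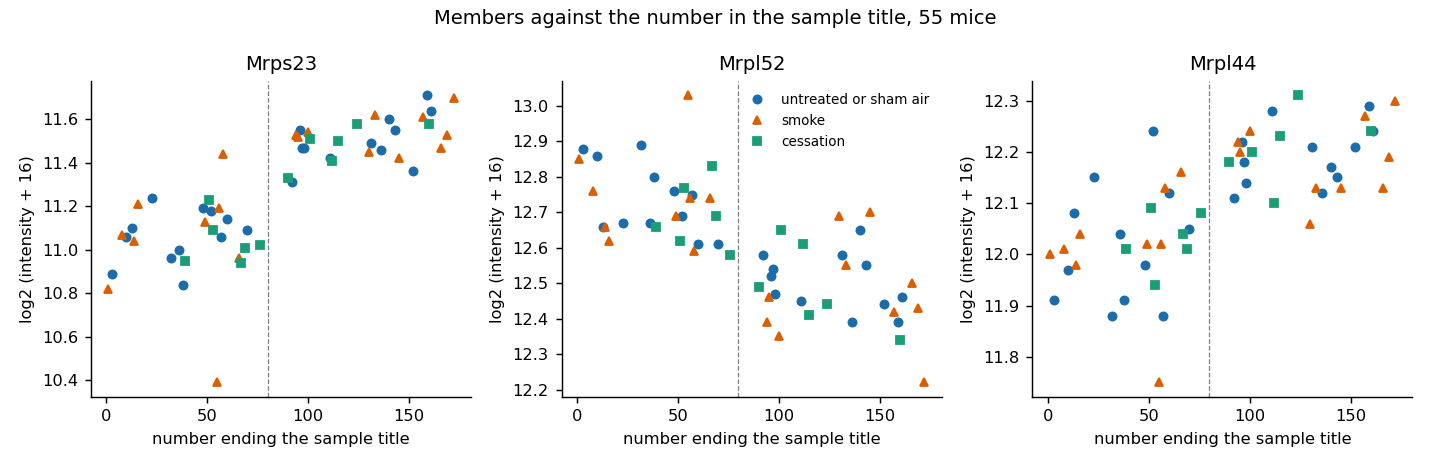
Level (log2 of intensity plus 16) of Mrps23, Mrpl52 and Mrpl44 against the number that ends the sample title, with 1 point for each of 55 mice, shaped by exposure. The dashed line marks 80. Mrps23 and Mrpl44 are higher and Mrpl52 is lower to the right of it, and mice of all exposure kinds lie on both sides.

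The numbers were spread unevenly over the groups. Only 1 of the 6 mice on 24-week sham air lay above 80, as did 2 FA mice and 2 mice on 2-week smoke. In every other group at least 3 mice did, 4 of them on 24-week smoke and 4 in the RA arm. The comparisons of 24-week smoke and of RA, with 24-week sham air or with FA, therefore set mostly high numbers against mostly low ones. FA and 24-week sham air both held mostly low ones. The comparisons of 2-week smoke and of 24-week sham air with 2-week sham air set mostly low numbers against mostly high ones. Values within each range are given below.

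Asked whether they differed anywhere among the 9 groups, 4 of 76 members (5.26%) passed limma's moderated F test, against 11.1% of all genes. They were Mrps16 (adjusted p = 0.02), Mrpl40 (adjusted p = 0.0202), Mrps26 (adjusted p = 0.0335) and Mrpl41 (adjusted p = 0.0461). When the Glycam1-high arrays were left out, 10 members (13.2%) passed, against 21.9% of all genes. These were the same 4 with Mrpl39, Mrpl49, Mrps2, Mrps6, Mrps9 and Mrps35. With the title number as a covariate the 4 passed again. Mrps16 and Mrpl40 passed in each of 55 refits that left out 1 mouse and in the 12 other alternatives. Mrps26 was lost in 4 of the 55 refits and 2 of the 12 alternatives, and Mrpl41 in 34 and 4. Both were lost with no filter on dim genes and with the mean of all probe sets of a gene. In RefSeq (GRCm38.p6) Mrps16 lies on chromosome 14 from 20391222 to 20393634 and Mrpl40 on chromosome 16 from 18872018 to 18876637. Mrps26 and Mrpl41 lie on chromosome 2, from 130563757 to 130565394 and from 24972470 to 24975098.

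Mrps16, a small subunit protein of bacterial descent, was lowest at 24 weeks of smoke. Its median was 10.61 in untreated mice, 10.71 at 2 weeks of sham air, 10.77 at 2 weeks of smoke, 10.77 at 12 weeks of sham air and 10.66 at 12 weeks of smoke. It was 10.74 at 24 weeks of sham air, 10.59 at 24 weeks of smoke, 10.69 in cessation FA and 10.62 in cessation RA. At 24 weeks the sham air mice ran from 10.65 to 10.90 and the smoke mice from 10.33 to 10.64, so the groups did not overlap. Its level was lower in the Glycam1-high arrays in all 7 groups, by -0.10 on average. The group means spanned 10.56 to 10.78, and neighbours in the order differed by less than the SD within most groups, 0.04 to 0.13.

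Mrpl40, a mitochondria-specific protein of the large subunit, was highest at 12 weeks. It averaged 10.06 ± 0.08 (SD, n = 6) in 12-week sham air and 10.00 ± 0.13 (SD, n = 7) in 12-week smoke. It averaged 9.83 in untreated mice, 24-week smoke and cessation RA, with SDs of 0.17, 0.10 and 0.10 (n = 6 each). The other 4 group means ran from 9.89 to 9.96. Untreated mice ran from 9.63 to 10.05 and overlapped with every other group.

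Mrps26, a mitochondria-specific protein of the small subunit, was also highest in 12-week sham air, at 11.01 ± 0.07 (SD, n = 6). It was lowest in cessation RA, at 10.81 ± 0.11, and in untreated mice, at 10.82 ± 0.03 (SD, n = 6 each). Untreated mice ran from 10.77 to 10.85 and mice on 2 weeks of sham air from 10.88 to 10.98, without overlap. Mrpl41, a mitochondria-specific protein of the large subunit, averaged 12.13 ± 0.09 in 12-week sham air and 12.12 ± 0.14 in 24-week sham air, and 11.89 ± 0.06 (SD, n = 6 each) in 2-week smoke, its lowest. It belongs to the members with higher values in Glycam1-high arrays, by 0.15 on average.

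**Figure D4:**
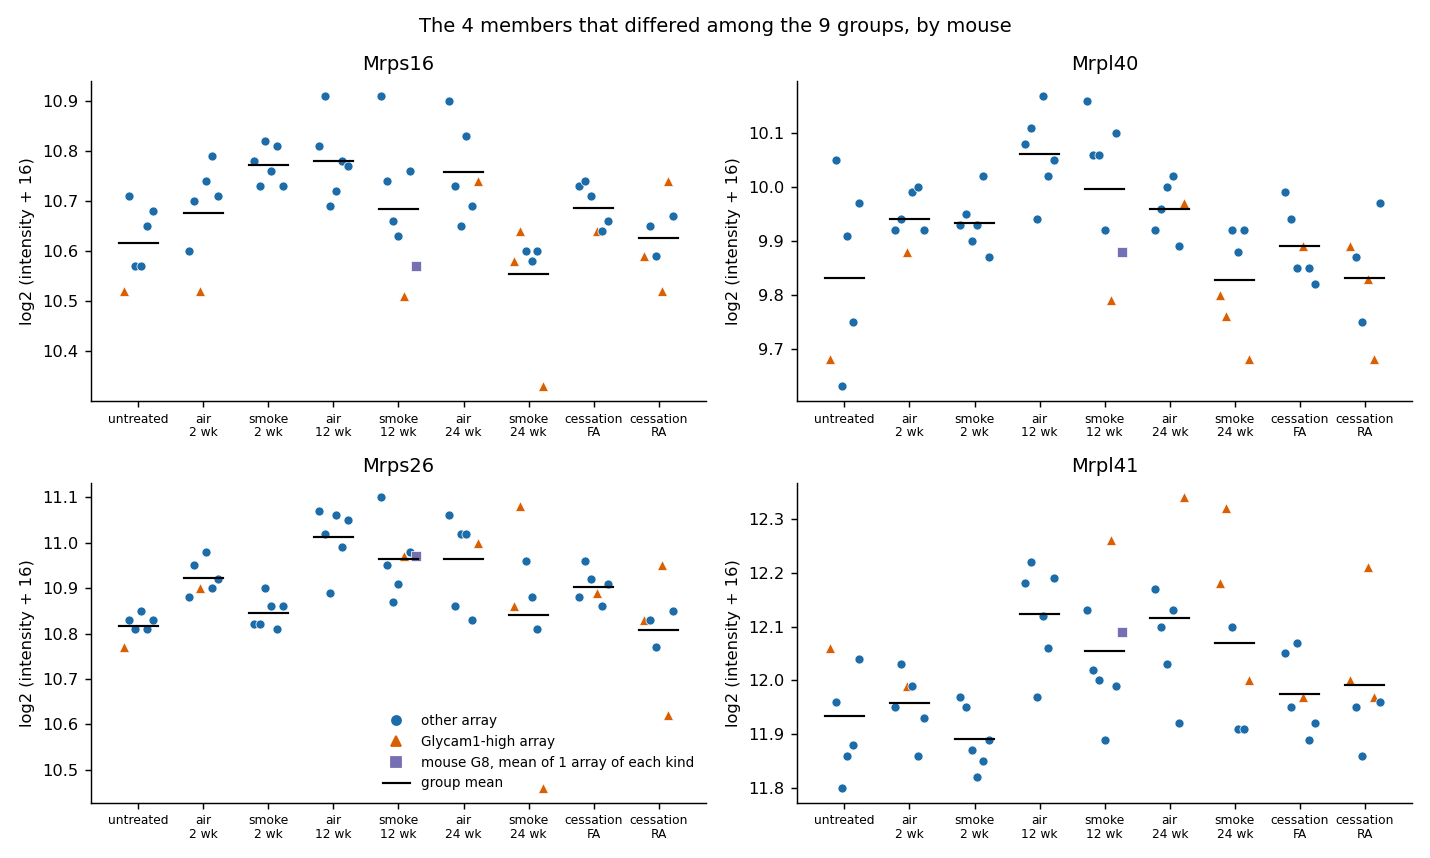
Level (log2 of intensity plus 16) of Mrps16, Mrpl40, Mrps26 and Mrpl41 in each of 55 mice, by group, with the group mean as a bar. Triangles mark Glycam1-high arrays and squares mouse G8. Mrps16 at 24 weeks of smoke lies wholly below 24 weeks of sham air, and Mrpl40, Mrps26 and Mrpl41 each have their highest mean in 12-week sham air.

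The smoke mice of each time were set against the sham air mice of that time, 6 mice against 6, or 7 against 6 at 12 weeks. No member passed at any of the 3 times in limma, with all 9 groups in one model and Benjamini-Hochberg adjustment over 12351 genes. At 2 weeks 0% of all genes passed, at 12 weeks 0.0081% and at 24 weeks 0.47%, so there was little to set the members against. At an unadjusted p under 0.05 there were 0 members at 2 weeks, 2 at 12 weeks and 37 at 24 weeks, against 2.06%, 1.86% and 24.6% of all genes. Without replicate 6 of 24 weeks of smoke there were 9 of 76 at 24 weeks, against 11.7% of all genes. Without the Glycam1-high arrays there were 14 of 76, against 20.5%. In the mean of the 3 times no member passed, against 0.0324% of all genes. There 21 members had an unadjusted p under 0.05, against 9.17% of all genes. These were 5 without replicate 6, against 6.02%, and 13 without the Glycam1-high arrays, against 13.2%.

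With all mice, the members' differences leaned downward at the later times. At 2 weeks of smoke 44 of 76 lay above 0 with a median of 0.01, and the range was -0.16 to 0.14. At 12 weeks 11 of 76 lay above 0 with a median of -0.05, against -0.01 for all genes, and the range was -0.22 to 0.04. Without the Glycam1-high arrays the 12-week median was -0.02, the same as for all genes. In that fit 27 of 76 members lay above 0, against 40.7% of all genes. At 24 weeks 8 of 76 lay above 0 with a median of -0.16, against -0.03 for all genes, and the range was -0.49 for Mrpl14 to 0.16 for Mrps23. Large and small subunits stood close at 24 weeks, with medians of -0.15 and -0.17. The median SE of a member was 0.08 at each of the 3 times. The highest value, that of Mrps23, had the opposite sign within the ranges of the title number, -0.36 below 80 and -0.09 above.

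The median at 24 weeks depended on the arrays named above. Without replicate 6 of 24 weeks of smoke it was -0.07, with 12 members above 0. Without all Glycam1-high arrays, which left 3 smoke mice and 5 sham air mice, it was -0.06, with 21 above 0. The lymphocyte genes differed by a median of 1.73 over 8 tested genes, and by 0.07 when those arrays were left out. The mean of 4 endothelial genes had a median of 8.35 in smoke and 8.85 in sham air, and the genes differed by a median of -0.29, and of -0.41 without those arrays. Adipocyte genes had medians of 10.14 and 9.63 and differed by a median of 0.30, and of -0.22 without them. Among mice with title numbers below 80 the median was -0.37, from 2 smoke mice and 5 sham air mice, and both of these smoke mice had Glycam1-high arrays. Among those above 80 it was 0.01, from 4 smoke mice and 1 sham air mouse. With the Glycam1-high arrays left out and the title number as a covariate, a fit chosen after seeing the data, the median was 0.00 and 39 of 76 lay above 0. The parts of these in the difference were not tested separately.

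Mrps16 gave the lowest p of the members at 24 weeks. Its difference was -0.20 ± 0.05 (adjusted p = 0.059), and it was the 1 member whose groups did not overlap with smoke lower, as 0.47% of all genes were. It was -0.16 ± 0.05 (adjusted p = 0.1) without the Glycam1-high arrays and -0.15 ± 0.05 (adjusted p = 0.29) without replicate 6 alone. Within the title numbers below 80 it was -0.32 and above 80 -0.05. Leaving out 1 mouse brought Mrps16 past the threshold in 5 of 12 refits, those without sham air replicate 3 or smoke replicates 1, 2, 3 or 4, with 2 to 5 members passing in each, against 2.31% to 4.43% of all genes.

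Mrpl38 differed by -0.33 ± 0.10 (adjusted p = 0.071) and Mrpl22 by -0.25 ± 0.08 (adjusted p = 0.075) at 24 weeks. Sham air mice ran from 9.26 to 9.48 for Mrpl38 and smoke mice from 8.34 to 9.31, with overlap. These were -0.11 and -0.14 without the Glycam1-high arrays. Mrpl12, a stalk protein that also binds the mitochondrial RNA polymerase, had a median of 11.73 in sham air and 11.55 in smoke and differed by -0.31 ± 0.10 (adjusted p = 0.078). This was -0.27 without the Glycam1-high arrays and -0.19 without replicate 6. Mrpl12 was also lower in mice with high title numbers, with a difference of -0.16 (adjusted p = 0.0036). Without the Glycam1-high arrays that difference was -0.22 (adjusted p = 4.3e-07). All 3 smoke mice then left had high title numbers, while 4 sham air mice had low ones and 1 a high one. The -0.27 therefore also sets high title numbers against mostly low ones. Mrpl14 had the largest difference, -0.49 ± 0.16 (adjusted p = 0.08), which was -0.29 without the Glycam1-high arrays.

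Other members of known role gave smaller or less certain values at 24 weeks. Mrps12, a protein of the decoding centre, differed by -0.12 and by 0.00 without the Glycam1-high arrays. The 3 relatives of bacterial S18, of which Mrps18a sits in the large subunit, differed by -0.26 (Mrps18a), -0.17 (Mrps18b) and -0.08 (Mrps18c), and without those arrays by 0.00, -0.10 and -0.04. Mrps27, a pentatricopeptide repeat protein, differed by -0.31, Mrps22 by -0.30, Mrps34 by -0.22 and Mrps30 by -0.10. Mrpl44 differed by 0.07. Mrps36, the member outside the ribosome, differed by -0.21. Adjusted p values of these ran from 0.094 to 0.53.

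At the earlier times the lowest p values belonged to Mrpl19, Mrpl47 and Mrps16 at 12 weeks, with -0.22 ± 0.10, -0.13 ± 0.06 and -0.10 ± 0.05 (adjusted p = 1 each). At 2 weeks they belonged to Mrps16, Mrpl11 and Mrps2, with 0.09 ± 0.05, 0.14 ± 0.09 and -0.09 ± 0.07 (adjusted p = 1 each). Mrpl47 gave the lowest in the mean of the 3 times, at -0.11 ± 0.04 (adjusted p = 0.43), followed by Mrpl19 at -0.15 ± 0.06 and Mrps26 at -0.08 ± 0.03 (adjusted p = 0.47 each). The smoke difference at 24 weeks was also set against that at 2 weeks, where 0.0324% of all genes and no member passed. At an unadjusted p under 0.05 there were 21 members, against 18.6% of all genes. Mrps16 gave -0.30 ± 0.08 (adjusted p = 0.14), Mrpl11 -0.36 ± 0.12 and Mrpl38 -0.40 ± 0.14. The median was -0.18, with -0.05 when the Glycam1-high arrays were left out and -0.09 without replicate 6. Members with an unadjusted p under 0.05 then numbered 9, against 17.2% of all genes, and 8, against 12.3%.

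**Figure D5:**
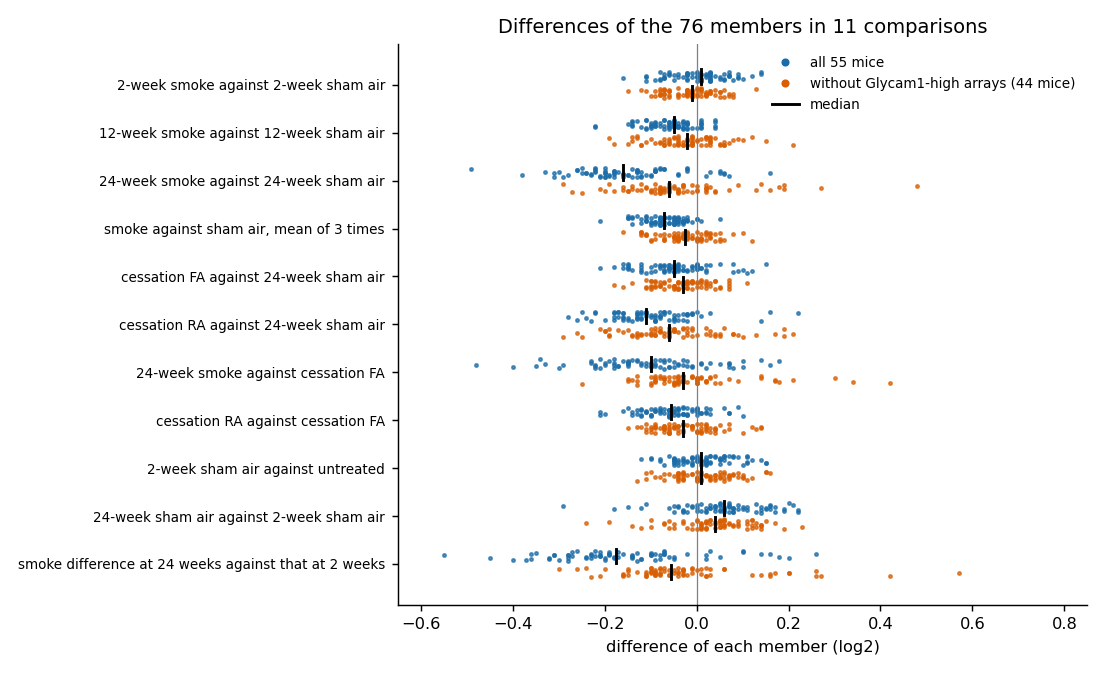
Difference of each of the 76 members (log2) in 11 comparisons, with all 55 mice in blue and without the Glycam1-high arrays in orange. Black bars mark medians. At 24 weeks of smoke the median moved from -0.16 to -0.06, and the point at the right of that row is Mrps23 at 0.48. That value sets 3 smoke mice, all with title numbers above 80, against 5 sham air mice, 1 of them above 80, and Mrps23 was 0.42 higher above 80 without these arrays.

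The cessation arms were compared with 24 weeks of sham air and with each other. These comparisons share their sham air mice. In cessation FA no member and 0.081% of all genes passed, and 18 of 76 members lay above 0 with a median of -0.05. In cessation RA no member and 1.76% of all genes passed, and 5 of 76 lay above 0 with a median of -0.11 against -0.01 for all genes. At an unadjusted p under 0.05 there were 2 members for FA and 16 for RA, against 7% and 13.7% of all genes. Between RA and FA no member and 0.0243% of all genes passed, 1 member had an unadjusted p under 0.05, against 4.15% of all genes, and the median was -0.06. Without the Glycam1-high arrays the medians were -0.03 for FA, -0.06 for RA and -0.03 between them. By title number, below and above 80, they were -0.02 and -0.07 for FA, -0.07 and -0.06 for RA, and -0.06 and 0 between RA and FA.

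Mrps26 gave the lowest p in cessation RA. It ran from 10.62 to 10.95 there and from 10.83 to 11.06 in sham air, with overlap, and differed by -0.16 ± 0.06 (adjusted p = 0.15). Within the title numbers below and above 80 it was -0.22 and -0.18. Mrpl34 differed by -0.28 ± 0.10 (adjusted p = 0.16) and Mrpl57 by -0.10 ± 0.04 (adjusted p = 0.17). For Mrpl34 the values below and above 80 were -0.37 and -0.02. Mrpl38, at 8.81 to 9.25 against 9.26 to 9.48, and Mrps27, at 9.07 to 9.41 against 9.44 to 9.70, did not overlap with sham air, as was so for 1.52% of all genes with RA lower.

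Leaving out an array outside the comparison changed these calls, because all groups share an estimate of spread. Without replicate 6 of 24 weeks of smoke 3 members fell in cessation RA, where 4.21% of all genes passed, namely Mrps26 (adjusted p = 0.025), Mrps27 by 0.24 (adjusted p = 0.036) and Mrpl38 by 0.26 (adjusted p = 0.05). Without the Glycam1-high arrays, which left 3 RA mice, 1 member passed with 3.97% of all genes. It was Mrps6, at 10.88 to 11.09 in RA and 11.10 to 11.54 in sham air, which fell by 0.26 (adjusted p = 0.021).

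In cessation FA the lowest p values belonged to Mrpl3 at -0.15 ± 0.07, Mrpl41 at -0.14 ± 0.06 (adjusted p = 0.67 each) and Mrpl34 at -0.21 ± 0.10 (adjusted p = 0.72). Between the arms they belonged to Mrpl10 at -0.16 ± 0.08, Mrps34 at -0.20 ± 0.11 and Mrps26 at -0.10 ± 0.06 (adjusted p = 0.96 each).

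Continued smoke was compared with cessation FA at the same 24 weeks. No member passed, against 3.55% of all genes, and 23 members had an unadjusted p under 0.05, against 27.7%. The median was -0.10 with 14 of 76 above 0. It was -0.03 without the Glycam1-high arrays and also without replicate 6 alone. It was -0.38 among title numbers below 80, from 2 and 4 mice, and 0.07 above, from 4 and 2 mice. Mrpl14 differed by -0.48 ± 0.16 (adjusted p = 0.063), Mrps25 by -0.23 ± 0.08 (adjusted p = 0.071) and Mrps18a by -0.35 ± 0.12 (adjusted p = 0.072). Leaving out smoke replicate 1, 3, 4 or 5 brought 1, 6, 7 and 7 members past the threshold, all lower with smoke, against 4.56%, 11%, 13.2% and 10.7% of all genes. Leaving out replicate 6 instead brought 1 member past it, with 1.02% of all genes, in the other direction. This was Mrpl49, which then was higher with smoke by 0.23 (adjusted p = 0.039). Without all Glycam1-high arrays it was again the 1 member passing, with 1.89% of all genes. Its 3 smoke mice lay between 9.76 and 9.86 and its 5 FA mice between 9.30 and 9.61, a difference of 0.30 (adjusted p = 0.015). Mrpl49 was read from the brighter of its 2 probe sets, and the other was not compared with FA by itself.

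The sham air groups show how the genes stood without smoke. Between untreated mice and 2 weeks of sham air no member passed, against 0.518% of all genes, and the median was 0.01. Mrpl57 differed by 0.08 ± 0.04 (adjusted p = 0.63), Mrpl40 by 0.11 ± 0.06 (adjusted p = 0.72) and Mrps26 by 0.10 ± 0.06 (adjusted p = 0.74). Mrps26 was the 1 member whose groups did not overlap, as 0.793% of all genes were with sham air higher.

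From 2 to 24 weeks of sham air 57 of 76 members had higher values, with a median of 0.06 against 0.03 for all genes. No member passed, against 0.219% of all genes, and 13 had an unadjusted p under 0.05, against 11.8%. Mrps18c differed by 0.20 ± 0.06 (adjusted p = 0.21), Mrpl33 by 0.14 ± 0.05 (adjusted p = 0.26) and Mrps2 by -0.18 ± 0.07 (adjusted p = 0.28). Mrps18c was also lower above title number 80, with a difference of -0.08 (adjusted p = 0.02), and fewer mice at 24 weeks had such numbers. Mrpl16, at 11.23 to 11.36 and then 11.37 to 11.62, was the 1 member without overlap, as 0.793% of all genes were in that direction. Without the Glycam1-high arrays 2 members passed, with 2.71% of all genes. Mrps6 rose from a mean of 10.98 to 11.21 (adjusted p = 0.024) and Mrps2 fell from 10.17 to 9.98 (adjusted p = 0.046). In the mice of that fit, title numbers above 80 were held by 3 of 5 at 2 weeks and 1 of 5 at 24 weeks. Mrps2 was higher by 0.08 above 80 without those arrays, and by 0.12 in all mice. With the title number as a covariate as well, Mrps6 alone passed, at 0.20 (adjusted p = 0.038).

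Different probe sets of a gene did not always move alike. The members have 156 probe sets in all, and 42 genes have more than 1. At 24 weeks of smoke against sham air all probe sets of a gene had the same sign in 23 of these 42 genes and differed in 19. The 3 of Mrpl38 ran from -0.33 to -0.09, the 3 of Mrpl41 from -0.16 to -0.04 and the 2 of Mrps26 from -0.24 to -0.12. The 3 of Mrps23 ran from -0.20 to 0.16 and the 4 of Mrpl44 from -0.27 to 0.07. For Mrpl49 the brighter probe set gave -0.02 and the other -0.23.

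Other genes of mitochondrial translation were read from lists at 24 weeks of smoke against sham air. None passed of 7 genes listed as mitoribosome proteins under other symbols, 11 translation factors and 18 assembly and rRNA enzymes. Nor did any of 15 genes of mitochondrial transcription and RNA handling or of 9 transcription factors. The median differences of these lists, in that order, were -0.13, -0.16, -0.12, -0.11 and 0.13. Mrpl57 and Mrpl58, entered in the first list as Mrp63 and Ict1, are also members, so that list is not separate from the members. Of 19 mitochondrial tRNA synthetases and related genes 1 fell, and the list's median was -0.10. It was Rars2, which charges mitochondrial tRNA with arginine, by 0.48 (adjusted p = 0.0068), and without the Glycam1-high arrays it differed by -0.39 (adjusted p = 0.077). Rars2 was also lower with continued smoke than in cessation FA, by -0.51 ± 0.09 (adjusted p = 0.001), and by -0.48 (adjusted p = 0.027) without those arrays. Vars2, the valine enzyme, fell by 0.44 in cessation RA (adjusted p = 0.044), and by 0.32 without them (adjusted p = 0.13). Pprc1, a coactivator of NRF1, was higher with continued smoke than in cessation FA by 0.30 (adjusted p = 0.041), and by 0.25 without them (adjusted p = 0.14).

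Beside the members, the 41 cytosolic ribosomal proteins had a median of 0.04 at 24 weeks of smoke with 38 above 0, and of -0.07 with 10 above 0 without the Glycam1-high arrays. The 79 respiratory chain and ATP synthase subunits had a median of -0.08 with 15 above 0, and of -0.07 with 13 above 0 without them. The members' -0.16 and -0.06 thus moved the other way from the cytosolic ribosome when these arrays were left out. No gene of either list passed. Slow fibre genes differed by a median of -0.43 over 7 genes, and by -0.61 without those arrays, and none of them passed.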

How the data were processed

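RNA of 56 muscle samples was amplified and hybridised to arrays, per the labels' protocols. The authors deposited linear intensities, 1 for each probe set. The sources used here do not state the probe summary or the scaling. Values were floored at -15 (5 of 2522072 moved), 16 was added and log2 taken. Each symbol was represented by its probe set of highest mean. Genes under the 40th percentile of probe set means (5.71) were left out, and 12351 were tested. The 2 arrays of mouse G8 were averaged. One limma model (3.58.1, R 4.3.3) over the 9 groups had 46 residual degrees of freedom. It gave 11 comparisons and a moderated F test. Adjusted p values are Benjamini-Hochberg adjusted over the 12351 genes, at a threshold of 0.05. With no filter on dim genes the adjustment was over 18193 genes. Replicates are separate mice by their labels. The number of arrays limits precision.

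Members named were those passing, the 3 of lowest p where none passed, the 5 brightest and 5 dimmest, the 3 most and 3 least variable, and 11 of known role. Genes of related lists were named where they passed, and the 2 of lowest p that the rule also allows were not given. Members and lists were chosen with earlier results of these data known. Alternatives were the pseudocount, the filter, quantile normalization, the mean of probe sets, array weights, robust moderation and left-out arrays. Each mouse was also left out of the comparisons that hold its group. The title number as a covariate was added after seeing the data. Figures were drawn with Python 3.11.15 and matplotlib 3.10.9.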

Additional observations from a re-analysis of the deposited data

Results flagged for a closer look

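In 45 checks of single mice against their group (5 quantities in 9 groups), 3 values stood far from the others, and chance flags about 1 in 20 groups. The mean over the 76 members was 10.17 in replicate 6 of 24 weeks of smoke, with the other 5 mice between 10.67 and 10.75. Mrps16 was 10.33 in the same mouse, with the others between 10.58 and 10.64. The mean over the members was 10.63 in replicate 3 of 2 weeks of sham air, with the others between 10.73 and 10.76. Both mice have Glycam1-high arrays, and the part of that in these values was not tested.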

How the results depend on the processing

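No paired analysis was possible because the replicates are different mice, numbered here in accession order, and no label ties a mouse of 1 group to a mouse of another. Each comparison was refitted without each mouse of its own groups and without replicate 6 of 24 weeks of smoke. Other mice were left out only for the F test. Members passing ranged from 0 to 5 at 24 weeks of smoke against sham air. They ranged from 0 to 7 in 24-week smoke against cessation FA, and from 2 to 7 in the F test over 9 groups. In cessation RA against sham air they ranged from 0 to 3, and members passed only without that replicate 6. They were 0 in every such refit of the other 8 comparisons. Without the Glycam1-high arrays 1, 1 and 2 members passed in cessation RA, in smoke against cessation FA and from 2 to 24 weeks of sham air, and 10 in the F test. With array weights 3 passed at 24 weeks of smoke (4.6% of all genes), 6 in cessation RA (7.33%), 1 in smoke against cessation FA (4.46%), 5 from 2 to 24 weeks of sham air (7.94%), 4 in the 24-week against 2-week smoke difference (5.96%) and 22 in the F test (37.6%). Without the 3 arrays outside the main run of identifiers 9 passed in smoke against cessation FA, all lower (10.5% of all genes), and with no filter on dim genes 2 passed in the F test (6.22%). With the title number as a covariate, chosen after seeing the data, 1 passed in smoke against cessation FA (Mrpl50, -0.39), with 8.86% of all genes. With it and without the Glycam1-high arrays 2 passed in cessation RA (Mrpl39, Mrps6), 1 in smoke against cessation FA, 1 from 2 to 24 weeks of sham air and 16 in the F test, with 3.98%, 0.615%, 2.41% and 27.3% of all genes. The cause of these changes was not tested.

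Signs turned for few named members. With the mean of all probe sets Mrpl11 was -0.02 at 2 weeks of smoke, Mrpl44 -0.09 at 24 weeks and Mrpl57 0.04 in cessation RA. At 24 weeks of smoke, Mrps12 and Mrps18a were 0.00 without the Glycam1-high arrays, and Mrpl44 was -0.02 with the title number as a covariate. With both changes Mrps12 was 0.02, Mrps18a 0.01, Mrps18b 0.01, Mrps18c 0.05 and Mrps34 0.00. The members' median at 24 weeks of smoke ran from -0.18 to 0 over the alternatives. Quantile normalization moved no all-gene median by more than 0.1 on the log2 scale. With 6 mice a group and a median SE of 0.08 at 24 weeks of smoke, differences below about 2 SEs could not be told from 0. That limit is before adjustment over all genes. Larger differences also did not pass after it, as for Mrps16, Mrpl38 and Mrpl12 at that time.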
